A study of Mus musculus with 8 samples.

Results

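The nuclear genes that encode subunits of respiratory complexes II, III, IV and V were examined in cultured mouse neurons with and without Nuak1. The set was chosen by name, as 37 subunit symbols or their newer names looked up by Ensembl identifier. All 37 were found among the 32726 gene identifiers counted, 4 of complex II, 9 of complex III, 11 of complex IV and 13 of complex V. All 37 were also among the 16272 genes with enough counts to be tested. Nuak1 encodes an AMPK-related kinase, and the study asked how its loss alters cortical neurons while their axons develop. Poly-A RNA was sequenced from neurons of constitutive Nuak1 knockout embryos (KO, 4 libraries) and wild-type embryos (WT, 4 libraries), in a colony kept on the C57Bl/6JRj background. The libraries also carry a strain label that nearly follows genotype, BJ in KO1 to KO3, BK in KO4, WT2 and WT4, BO in WT1 and BQ in WT3, and what these letters stand for is not given in the sources used here. The neurons were collected after 5 days in serum-free culture with no further treatment, from 4 animals per genotype. The tissue label reads cortex or hippocampus in every library, and single libraries are given no region here.

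Complexes II to V are the part of oxidative phosphorylation that follows complex I in the inner mitochondrial membrane. Complex II (succinate dehydrogenase) is also an enzyme of the citric acid cycle and feeds electrons from succinate into ubiquinone. Complex III passes them from ubiquinol to cytochrome c, complex IV (cytochrome c oxidase) passes them to oxygen, and complex V (ATP synthase) makes ATP with the proton gradient that complexes I, III and IV build. Complex II is encoded by nuclear genes alone, whereas complexes III, IV and V also hold subunits made from the mitochondrial genome. The study proposes that branching of axons relies on mitochondrial metabolism, whereas axon length rose with the glucose concentration of the medium. The nuclear subunit genes are expressed in nearly every cell type.

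The libraries held 31247078 to 67155004 counts. Nuak1 checked the labels, at 1.96 to 2.72 CPM (counts of the gene per 1000000 counts of its library) in KO and 51.6 to 82.6 CPM in WT, a log2 difference of −4.89 (SE 0.13, adjusted p = 1.24e-07, edgeR). Summed markers of neurons lay at 6512 to 7349 CPM in KO, against 6487 to 7362 CPM in WT, those of astrocytes at 585 to 1205 and 546 to 948 CPM, and those of microglia at 2.27 to 23.9 and 2.54 to 10.2 CPM. None of the marker genes listed for these cells was at 0 in all 8 libraries. Markers of dividing cells had a summed level of 153 to 262 CPM in KO, against 62.8 to 191 CPM in WT. Of these markers 4 of 5 passed the study's unadjusted threshold as higher in KO, as 2.22% of all tested genes did. Of 10 neuron markers 1 passed it as lower in KO, as 3.53% of all tested genes did. The part of these cells in the values below was not tested. In cultures measured as a whole, fewer cells of a type and less RNA per cell cannot be told apart. Lane A held KO1, KO4, WT1 and WT3 and lane B the others. KO1 and WT1 stood apart from the other 6 libraries, with surrogate variable values of −0.56 and −0.62 against 0.048 to 0.39, so some values are also given without this pair.

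No subunit gene passed the test between genotypes. Of all tested genes 8, or 0.0492%, had an adjusted p under 0.05 (edgeR quasi-likelihood test with Benjamini-Hochberg adjustment over 16272 genes), and 0 of the 37 subunit genes were among them. The study's threshold, an absolute log2 fold change above 0.25 with an unadjusted p under 0.05, called 2.22% of all tested genes as higher in KO and 3.53% as lower, and again 0 of 37 subunit genes. An unadjusted p under 0.05 alone was reached by 10.6% of all tested genes, 4.87% higher and 5.75% lower in KO, and by 1 subunit gene, Cyc1, higher in KO. DESeq2 also called 0 subunit genes. Leaving out KO1 and WT1 together gave 0 calls by either threshold, with or without a surrogate variable.

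The differences between genotypes were small for every subunit. The 37 log2 fold changes, KO over WT, ran from −0.17 to 0.18, with a median of 0.050 beside 0.015 over all tested genes. They were above 0 for 23 of 37 subunits and for 53.8% of all tested genes. The median was 0.078 for complex II, 0.084 for complex III, 0.029 for complex IV and 0.036 for complex V. Without KO1 and WT1 the median over the subunits was 0.074 with a surrogate variable and 0.026 without one. The 37 log2 fold changes then ran from −0.20 to 0.17 with a surrogate variable and from −0.38 to 0.15 without one, and 5 and 3 of them turned sign. Lane A alone gave 0.062 and lane B alone 0.012. The 95% interval of the log2 fold change lay wholly between −0.25 and 0.25 for 18 of 37 subunits and for 25.3% of all tested genes. For the remaining 19 the interval reached past −0.25 or 0.25, and these 4 libraries per genotype leave a difference of that size possible. The intervals hold for this fit only, with its surrogate variable taken as given. Atp5d, among the 18, ran from −0.10 to 0.40 over 24 alternatives. With the strain label of the libraries as a term the median was 0.15 beside −0.0024 over all tested genes. In that fit 33 of 37 subunits were above 0 beside 49.6% of all tested genes. The label coincides with genotype in all but 1 of its 4 values. These estimates therefore compare KO4 with WT2 and WT4, so they rest on 1 KO library.

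**Figure D1:**
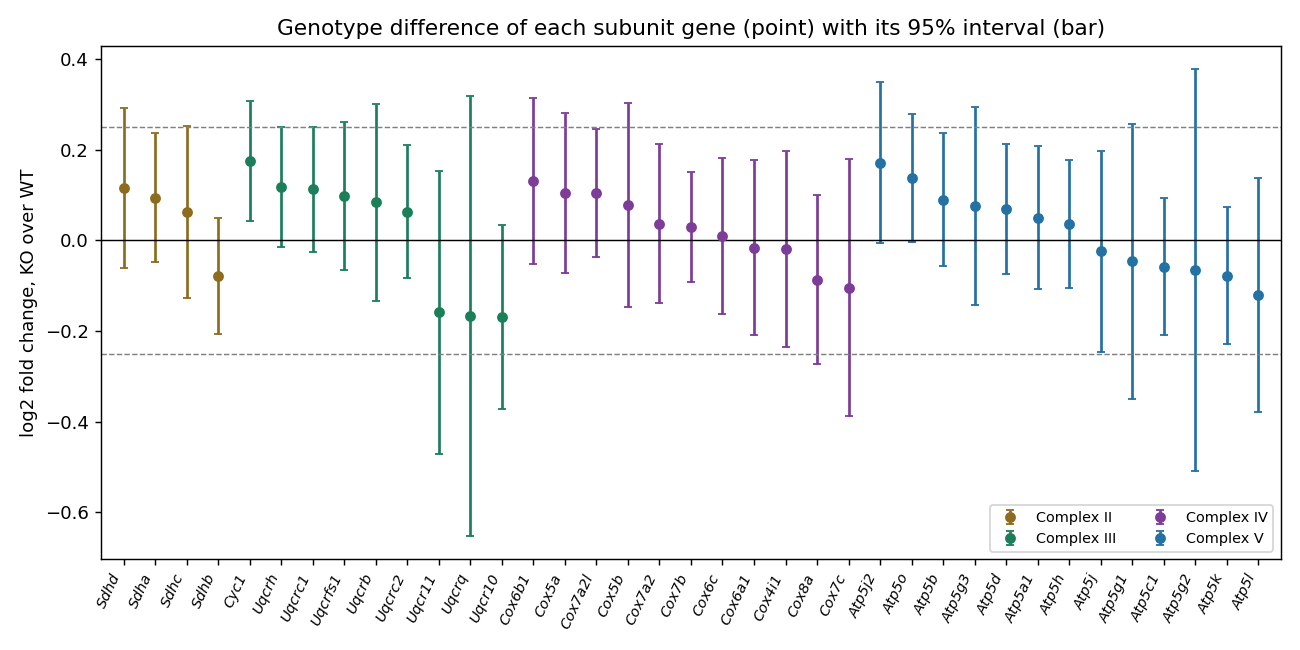
Log2 fold change (KO over WT, vertical axis) of the 37 subunit genes, ordered by value within each complex, from the edgeR fit with 1 surrogate variable. Points are estimates, bars are 95% intervals and dashed lines mark −0.25 and 0.25. All points lie between −0.17 and 0.18, and the widest interval is that of Uqcrq, from −0.65 to 0.32.

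Complex II consists of the flavoprotein Sdha, the iron-sulfur protein Sdhb and the membrane anchors Sdhc and Sdhd. Sdha (ENSMUSG00000021577, GRCm38 chromosome 13, 74322255 to 74350240) had 239, 206, 217 and 211 CPM in KO1 to KO4 and 210.0, 203, 186 and 195 CPM in WT1 to WT4. The 2 genotypes overlapped only through WT1, and the log2 fold change was 0.09 (SE 0.06, 95% interval −0.05 to 0.24, adjusted p = 0.619, edgeR). Sdhb (ENSMUSG00000009863, chromosome 4, 140961271 to 140979198), which carries electrons on iron-sulfur clusters, had 36.7, 54.3, 62.0 and 65.7 CPM in KO and 34.5, 59.8, 78.9 and 60.9 CPM in WT. KO1 and WT1 were the low libraries within their genotypes, and the log2 fold change was −0.08 (SE 0.06, interval −0.21 to 0.05, adjusted p = 0.648, edgeR). Without that pair it was −0.04 with a surrogate variable and −0.16 without one.

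The anchors, which bind ubiquinone in the membrane, were also lowest in KO1 and WT1 within their genotypes. Sdhc (ENSMUSG00000058076, chromosome 1, 171129157 to 171150640) had 62.7, 70.1, 68.5 and 76.6 CPM in KO and 54.3, 58.0, 83.3 and 68.0 CPM in WT, with a log2 fold change of 0.06 (interval −0.13 to 0.25, adjusted p = 0.824, edgeR). Sdhd (ENSMUSG00000000171, chromosome 9, 50596340 to 50603849) had 54.4, 70.2, 75.4 and 72.6 CPM in KO and 46.2, 57.6, 84.8 and 63.0 CPM in WT, with a log2 fold change of 0.12 (interval −0.06 to 0.29, adjusted p = 0.623, edgeR). Without KO1 and WT1 the value of Sdhc was 0.12 with a surrogate variable and 0.01 without one, and that of Sdhd was 0.17 and 0.06. WT3 was the highest of all 8 libraries for Sdhb, Sdhc and Sdhd and the lowest for Sdha. Together the 4 genes amounted to 411 ± 16.1 CPM in KO, against 386 ± 36.3 CPM in WT (SD, n = 4 each), and the ranges overlapped.

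In complex III, Cyc1 encodes cytochrome c1, the haem subunit that hands electrons to cytochrome c. Cyc1 (ENSMUSG00000022551, chromosome 15, 76343513 to 76346260) had 55.6, 76.7, 80.4 and 84.9 CPM in KO and 44.7, 65.3, 77.6 and 75.5 CPM in WT. The genotypes overlapped, and KO1 and WT1 were again the low libraries. Its log2 fold change of 0.18 (SE 0.06, interval 0.04 to 0.31) was the highest of the 37 subunits, with an unadjusted p = 0.0144 and an adjusted p = 0.369 (edgeR). Without KO1 and WT1 it was 0.16 with a surrogate variable and 0.12 without one, and lane A and lane B alone gave 0.19 and 0.096.

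The core proteins and the Rieske protein, which form the bulk and the mobile iron-sulfur domain of the complex, gave log2 fold changes of 0.11 for Uqcrc1, 0.06 for Uqcrc2 and 0.10 for Uqcrfs1. Leaving out KO1 and WT1 gave 0.11 with a surrogate variable and 0.04 without one for Uqcrc1, and 0.04 and 0.03 for Uqcrc2. Mean levels in KO and WT were 94.6 ± 19.7 and 87.7 ± 22.2 CPM for Uqcrc1, 193 ± 29.9 and 178 ± 17.3 CPM for Uqcrc2, and 57.8 ± 3.55 and 52.7 ± 3.79 CPM for Uqcrfs1 (SD, n = 4 each). Uqcrc1 and Uqcrc2 departed in opposite directions in the same pair of libraries. Uqcrc1 was lowest in KO1 and WT1, at 68.2 and 56.0 CPM against 91.2 to 112 CPM in the others, and Uqcrc2 was highest there, at 237 and 201 CPM against 160.3 to 182 CPM.

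Uqcrh, the acidic hinge protein near the cytochrome c binding site, was also highest in KO1 and WT1. Uqcrh (ENSMUSG00000063882, chromosome 4, 116066965 to 116075070) had 123, 87.7, 86.0 and 87.4 CPM in KO and 106, 78.1, 73.0 and 83.8 CPM in WT. Its log2 fold change was 0.12 (SE 0.06, interval −0.014 to 0.25, adjusted p = 0.511, edgeR). Uqcrb, another accessory subunit, had a log2 fold change of 0.08 and levels of 13.7 to 21.6 CPM.

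The 3 smallest accessory subunits, Uqcrq, Uqcr10 and Uqcr11, varied most between libraries of 1 genotype. Uqcr10 (ENSMUSG00000059534, chromosome 11, 4701968 to 4704344) had 6.81, 21.6, 30.7 and 33.9 CPM in KO and 6.62, 34.5, 45.2 and 26.2 CPM in WT, with a log2 fold change of −0.17 (SE 0.09, interval −0.37 to 0.03, adjusted p = 0.540, edgeR). Uqcr11 (ENSMUSG00000020163, chromosome 10, 80402997 to 80406821) had 2.67, 9.31, 16.8 and 20.1 CPM in KO and 3.04, 17.3, 25.1 and 12.3 CPM in WT, with a log2 fold change of −0.16 (SE 0.14, interval −0.47 to 0.15, adjusted p = 0.710, edgeR). Uqcrq (ENSMUSG00000044894, chromosome 11, 53427922 to 53430831) had 3.99, 8.73, 13.7 and 21.8 CPM in KO and 3.49, 18.0, 27.9 and 10.5 CPM in WT, with a log2 fold change of −0.17 (SE 0.21, interval −0.65 to 0.32, adjusted p = 0.814, edgeR). These were the only complex III subunits with a log2 fold change below 0, and for each of them KO1 and WT1 lay below the other 6 libraries. Without that pair and without a surrogate variable the values were further below 0, at −0.33 for Uqcr10, −0.27 for Uqcr11 and −0.38 for Uqcrq, whereas with a surrogate variable they were −0.09, 0.06 and 0.07. Entering the strain label, which compares KO4 with WT2 and WT4 alone, put Uqcrq at 0.59. None of these values passed a threshold, and the direction of the 3 genes depended on the fit.

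In complex IV, Cox4i1 is a nuclear subunit that takes part in its regulation by ATP. Cox4i1 (ENSMUSG00000031818, chromosome 8, 120668225 to 120674209) had 94.9, 177, 219 and 240.2 CPM in KO and 83.6, 242, 235 and 195 CPM in WT. KO1 and WT1 were far below the others and the genotypes overlapped throughout, with a log2 fold change of −0.02 (SE 0.10, interval −0.24 to 0.20, adjusted p = 0.961, edgeR), which was −0.11 without that pair and without a surrogate variable. Cox5a, a subunit on the matrix side, was instead highest in KO1 and WT1, at 71.7 and 58.9 CPM against 42.9 to 51.8 CPM, with a log2 fold change of 0.10 that was 0.05 without that pair, or 0.08 with no surrogate variable either.

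The members of complex IV with the highest and lowest log2 fold changes were Cox6b1, a subunit on the intermembrane side, and Cox7c, a small membrane subunit. Cox6b1 (ENSMUSG00000036751, chromosome 7, 30616971 to 30626114) had 162, 190.2, 207 and 218 CPM in KO and 150.2, 174, 168 and 204 CPM in WT, with a log2 fold change of 0.13 (SE 0.08, interval −0.05 to 0.31, adjusted p = 0.591, edgeR). Cox7c (ENSMUSG00000017778, chromosome 13, 86044798 to 86046795) had 3.56, 3.58, 3.70 and 2.92 CPM in KO and 3.87, 3.41, 3.61 and 3.50 CPM in WT, with a log2 fold change of −0.10 (SE 0.13, interval −0.39 to 0.18, adjusted p = 0.797, edgeR). In both genes the genotypes overlapped. Cox7a2l, which takes part in joining complexes III and IV into supercomplexes, had 31.8 ± 3.56 CPM in KO, against 29.4 ± 5.45 CPM in WT (SD, n = 4 each) and a log2 fold change of 0.10.

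The remaining 6 complex IV subunits were Cox5b, Cox6a1, Cox6c, Cox7a2, Cox7b and Cox8a, and their log2 fold changes ran from −0.09 for Cox8a to 0.08 for Cox5b. Cox7b, whose gene lies on the X chromosome, was among the steadiest, at 80.5 ± 6.83 CPM in KO, against 77.2 ± 4.49 CPM in WT, and its interval of −0.09 to 0.15 was the narrowest of the 37. Cox7a2 was similarly even, with 85.4 to 107 CPM over all libraries. Summed over the complex, KO libraries held 653, 776, 882 and 925 CPM and WT libraries 605, 834, 838 and 831 CPM. KO1 and WT1 were the lowest libraries of their genotypes.

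In complex V the catalytic head is built from the alpha subunit Atp5a1 and the beta subunit Atp5b, which carries the catalytic sites. Atp5b (ENSMUSG00000025393, chromosome 10, 128083307 to 128090388) had 747, 681, 695 and 717 CPM in KO and 650.2, 614, 672 and 666 CPM in WT. It was the only subunit whose CPM did not overlap between genotypes, higher in KO, a pattern met by 1.54% of all tested genes. The lowest KO value and the highest WT value were 681 and 672 CPM, and the log2 fold change was 0.09 (SE 0.07, interval −0.06 to 0.24, adjusted p = 0.648, edgeR). Atp5a1 had 516 ± 60.4 CPM in KO, against 495 ± 93.8 CPM in WT (SD, n = 4 each), and the log2 fold change was 0.05. It was 0.09 with KO1 and WT1 left out, and −0.01 if the surrogate variable was dropped too.

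The central stalk, whose rotation couples the membrane rotor to the head, includes Atp5c1 and Atp5d. Atp5c1 was the steadiest subunit over the 8 libraries, at 131 to 147 CPM, with a log2 fold change of −0.06 (interval −0.21 to 0.09). Atp5d (ENSMUSG00000003072, chromosome 10, 80138698 to 80145828) had 14.5, 34.4, 44.6 and 51.1 CPM in KO and 11.6, 39.8, 59.3 and 36.7 CPM in WT. Its log2 fold change was 0.07 (SE 0.06, interval −0.07 to 0.21, adjusted p = 0.726, edgeR). Without KO1 and WT1 it was 0.14 with a surrogate variable and −0.09 without one, and over 24 alternatives it ran from −0.10 to 0.40 and was above 0 in 18, so no direction is given for Atp5d. The difference between the 2 stalk genes in spread between libraries carries no test.

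The peripheral stalk and small membrane subunits hold the stator together and shape the dimers of the enzyme. The log2 fold changes were 0.14 for Atp5o (interval −0.0028 to 0.28, adjusted p = 0.482, edgeR), 0.04 for Atp5h, −0.02 for Atp5j and −0.08 for Atp5k. Atp5j2 (ENSMUSG00000038690, chromosome 5, 145183704 to 145191541) had the highest value of complex V, 0.17 (SE 0.08, interval −0.0057 to 0.35, adjusted p = 0.486, edgeR), with 63.2, 79.0, 86.2 and 91.9 CPM in KO and 53.4, 75.7, 70.6 and 80.4 CPM in WT. The value was 0.31 from lane A alone and 0.017 from lane B alone. Atp5l (ENSMUSG00000038717, chromosome 9, 44913248 to 44920742) had the lowest, −0.12 (SE 0.12, interval −0.38 to 0.14, adjusted p = 0.736, edgeR), with 8.71, 7.28, 7.27 and 6.38 CPM in KO and 10.4, 7.19, 5.52 and 8.40 CPM in WT. Without KO1 and WT1 and without a surrogate variable the values were 0.04 for Atp5o and −0.05 for Atp5l, and with one they were 0.13 and −0.17. With that pair left out Atp5j was −0.04 and Atp5k −0.09 without a surrogate variable, and 0.06 and −0.02 with one. The genotypes overlapped for each of these genes.

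Atp5g1, Atp5g2 and Atp5g3 encode the same mature c subunit, the protein of the rotor ring, with different import sequences, so their mix is a property of each library that scaling cannot move. Their last 228 coding bases were 85.1% identical between Atp5g1 and Atp5g2, 79.8% between Atp5g1 and Atp5g3 and 78.5% between Atp5g2 and Atp5g3. Per length, Atp5g3 held 91.3, 88.9, 88.2 and 90.9% of the 3 genes in KO1 to KO4 and 89.0, 89.1, 89.0 and 89.1% in WT1 to WT4. Its mean share was 89.8 ± 1.50% in KO and 89.0 ± 0.0576% in WT (SD, n = 4 each). The difference of 0.776 percentage points was below the SD in KO and above that in WT. It did not pass the test of mean shares (2-sided exact permutation test, p = 0.429, adjusted over the 3 shares 0.543, smallest possible 0.0286). Atp5g1 held 8.93 ± 1.60% in KO and 9.57 ± 0.366% in WT (exact permutation p = 0.400), and Atp5g2 held 1.26 ± 0.151% and 1.39 ± 0.316% (exact permutation p = 0.543). The 4 WT shares of Atp5g3 lay closer together than the 4 KO shares, and no test was made of that difference in spread. The log2 fold changes were −0.05 for Atp5g1 (interval −0.35 to 0.26, adjusted p = 0.927), −0.07 for Atp5g2 (interval −0.51 to 0.38, adjusted p = 0.930) and 0.07 for Atp5g3 (interval −0.14 to 0.29, adjusted p = 0.819, all edgeR). With KO1 and WT1 left out the values were 0.06 for Atp5g1, −0.20 for Atp5g2 and 0.13 for Atp5g3, and with the surrogate variable left out as well they were 0.03, −0.23 and 0.04.

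**Figure D2:**
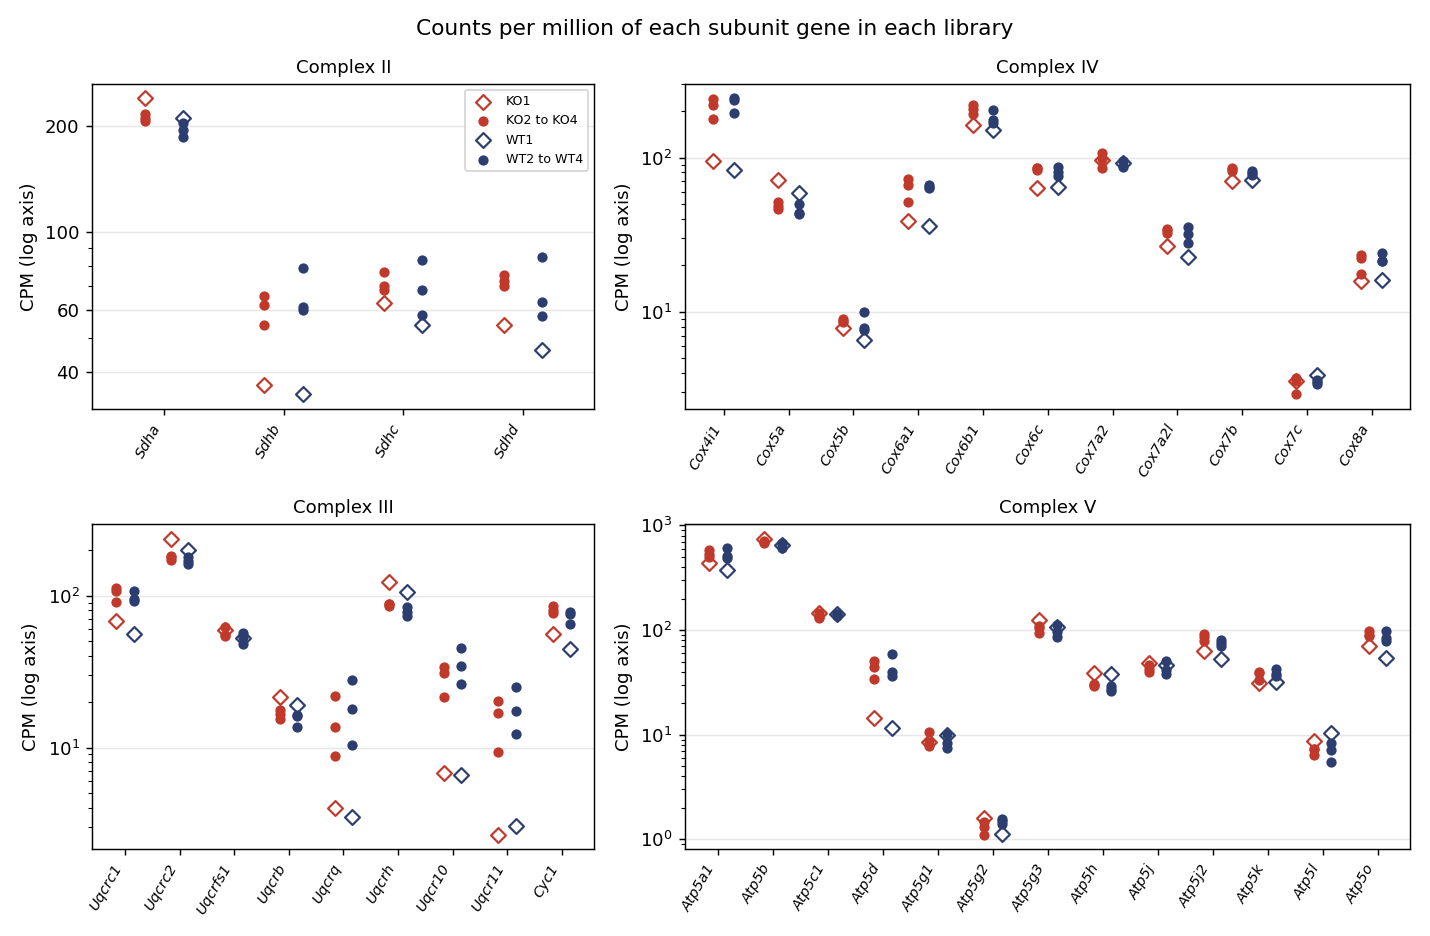
CPM (log axis) of every subunit gene in each library, with KO in red and WT in blue and 1 panel per complex. Open diamonds are KO1 and WT1, and filled circles are libraries 2 to 4 of each genotype. The diamonds lie far below the circles for Uqcrq, Uqcr10, Uqcr11, Cox4i1 and Atp5d, and above them for Uqcrc2, Uqcrh and Cox5a, while red and blue symbols overlap for every gene but Atp5b.

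Subunits of 1 complex went separate ways between libraries. The highest library exceeded the lowest by a median of 1.54-fold over the subunits and 1.76-fold over all tested genes. The ratio was above 2 for 6 subunits, and for 39.7% of all tested genes. It was 9.38 for Uqcr11, 7.99 for Uqcrq, 6.82 for Uqcr10, 5.14 for Atp5d, 2.89 for Cox4i1 and 2.29 for Sdhb. With KO1 and WT1 left out it stayed above 2 for Uqcrq, Uqcr10 and Uqcr11. The median was then 1.30 over the subunits and 1.40 over all tested genes. At the other end the ratio was 1.12 for Atp5c1 and 1.22 for Cox7b and Atp5b.

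For many subunits KO1 and WT1 were the 2 lowest or the 2 highest libraries. KO1 and WT1 were both below the other 6 libraries for 19 of 37 subunits and for 28.8% of all tested genes. The 19 were 2 of 4 subunits in complex II, 5 of 9 in complex III, 7 of 11 in complex IV and 5 of 13 in complex V. Both were above the other 6 libraries for 6 subunits, Uqcrc2, Uqcrb, Uqcrh, Cox5a, Atp5h and Atp5l, and for 20.5% of all tested genes. Among the other libraries, WT3 was the highest of all 8 for 13 subunits. These counts describe libraries that were singled out after their values were seen, and carry no test.

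KO1 and WT1 were each set against the other 3 libraries of their own genotype, and no test was made between the 2 ratios. Uqcr11 stood at 0.173 of the mean of the other KO libraries in KO1 and at 0.167 of the mean of the other WT libraries in WT1. The same ratios were 0.237 and 0.188 for Uqcr10, 0.271 and 0.186 for Uqcrq, 0.335 and 0.255 for Atp5d, 0.448 and 0.374 for Cox4i1, and 0.605 and 0.518 for Sdhb. In the other direction they were 1.47 and 1.30 for Cox5a, 1.41 and 1.35 for Uqcrh, 1.33 and 1.18 for Uqcrc2, and 1.30 and 1.39 for Atp5h. The ratios went separate ways for Atp5g2, at 1.24 in KO1 and 0.753 in WT1, and for Atp5g1, at 0.953 and 1.15. Complex III held both low and high subunits in the same 2 libraries.

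The 6 subunits with a ratio above 2 had transcripts of 54.9 to 61.1% G and C, which put all of them among the 13 subunits richest in these bases. Cox7b, among the subunits with less G and C, was also lowest in KO1 and WT1, but by less. Coding sequences of 6 small subunits are shown, from GENCODE vM1 on NCBIM37, 5′ to 3′ from start to stop codon with every G and C in capitals. Uqcr11, Uqcr10 and Uqcrq stand for the lowest subunits, Uqcrh and Cox7b for a high and an even one, and Cox8a for an exception described after them.
Uqcr11: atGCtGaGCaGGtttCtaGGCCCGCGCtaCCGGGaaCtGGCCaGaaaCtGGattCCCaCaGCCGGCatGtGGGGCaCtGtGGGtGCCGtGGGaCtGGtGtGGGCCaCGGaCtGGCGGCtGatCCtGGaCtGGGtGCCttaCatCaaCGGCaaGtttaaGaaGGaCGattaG
Uqcr10: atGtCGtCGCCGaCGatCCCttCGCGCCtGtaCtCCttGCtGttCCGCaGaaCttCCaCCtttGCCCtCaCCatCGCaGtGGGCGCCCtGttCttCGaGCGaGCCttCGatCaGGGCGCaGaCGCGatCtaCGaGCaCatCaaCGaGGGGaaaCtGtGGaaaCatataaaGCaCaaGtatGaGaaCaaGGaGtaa
Uqcrq: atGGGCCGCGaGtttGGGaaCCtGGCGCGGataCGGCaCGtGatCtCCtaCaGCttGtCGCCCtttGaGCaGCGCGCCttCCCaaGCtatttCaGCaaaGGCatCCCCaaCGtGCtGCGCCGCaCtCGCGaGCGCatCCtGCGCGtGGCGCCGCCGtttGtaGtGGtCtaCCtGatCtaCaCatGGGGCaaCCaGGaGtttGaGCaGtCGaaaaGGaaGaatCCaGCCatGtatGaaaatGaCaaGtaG
Uqcrh: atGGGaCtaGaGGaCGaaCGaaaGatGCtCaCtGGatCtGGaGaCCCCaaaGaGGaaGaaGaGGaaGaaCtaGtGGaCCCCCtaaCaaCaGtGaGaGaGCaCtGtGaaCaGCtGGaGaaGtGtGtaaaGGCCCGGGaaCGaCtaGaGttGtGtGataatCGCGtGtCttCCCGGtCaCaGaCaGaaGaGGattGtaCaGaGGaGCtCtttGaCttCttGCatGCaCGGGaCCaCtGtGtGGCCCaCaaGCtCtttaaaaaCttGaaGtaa
Cox7b: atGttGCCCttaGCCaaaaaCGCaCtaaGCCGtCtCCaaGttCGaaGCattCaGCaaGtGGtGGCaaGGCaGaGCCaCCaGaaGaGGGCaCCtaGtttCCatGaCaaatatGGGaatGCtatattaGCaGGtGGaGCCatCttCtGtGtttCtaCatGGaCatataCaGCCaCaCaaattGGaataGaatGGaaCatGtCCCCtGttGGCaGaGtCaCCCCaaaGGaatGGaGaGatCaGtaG
Cox8a: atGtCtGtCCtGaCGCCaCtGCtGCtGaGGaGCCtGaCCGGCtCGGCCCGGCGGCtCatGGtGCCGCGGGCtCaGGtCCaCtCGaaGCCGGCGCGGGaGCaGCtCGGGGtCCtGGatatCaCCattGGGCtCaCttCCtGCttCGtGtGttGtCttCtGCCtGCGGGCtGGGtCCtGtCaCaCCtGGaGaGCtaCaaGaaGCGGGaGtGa
G and C made up 60.2% of the coding bases of Uqcr11, 54.9% of Uqcr10, 57.4% of Uqcrq, 49.6% of Uqcrh and 47.3% of Cox7b. Cox8a had the highest share of these, 64.8%, and yet stood at 0.752 of the other KO libraries in KO1 and 0.721 of the other WT libraries in WT1, far less of a departure than in Uqcr11.

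Over the 37 subunits, the deviation of a library from the median of all 8, on the log2(CPM + 0.5) scale, had a Spearman correlation with transcript GC content of −0.64 in KO1 and −0.65 in WT1. It was 0.53 in KO3, 0.48 in KO4, 0.47 in WT2 and 0.49 in WT3, and lay at −0.38 in KO2 and −0.07 in WT4. Over 13636 tested genes with a transcript the values were −0.75 in KO1 and −0.76 in WT1, and in the other libraries they ran from −0.09 in KO2 to 0.55 in KO3. These are descriptions across genes, which share the library, its depth and its base composition and are not independent replicates. With the subunits in 3 groups of rising transcript GC content, the median deviation in KO1 was 0.07 in the 12 subunits of 39.9 to 48.7%, −0.14 in the 12 of 48.7 to 53.9% and −0.71 in the 13 of 54.9 to 61.1%. In WT1 it was 0.0073, −0.24 and −0.80. Transcript length gave correlations of 0.18 in KO1 and 0.0081 in WT1.

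The 37 log2 fold changes between genotypes had a Spearman correlation of −0.12 with transcript GC content. When GC content was entered as an offset in place of the surrogate variable, an alternative added after the data were seen, 0 subunits passed either threshold and the median log2 fold change was 0.031. With the GC offset the values were −0.33 for Uqcr10, −0.34 for Uqcrq and −0.26 for Uqcr11, against 0.12 for Uqcrh and 0.15 for Cyc1. The log2 fold changes of that fit had a Spearman correlation of −0.35 with transcript GC content. The part of GC content in the spread between libraries was not tested further.

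**Figure D3:**
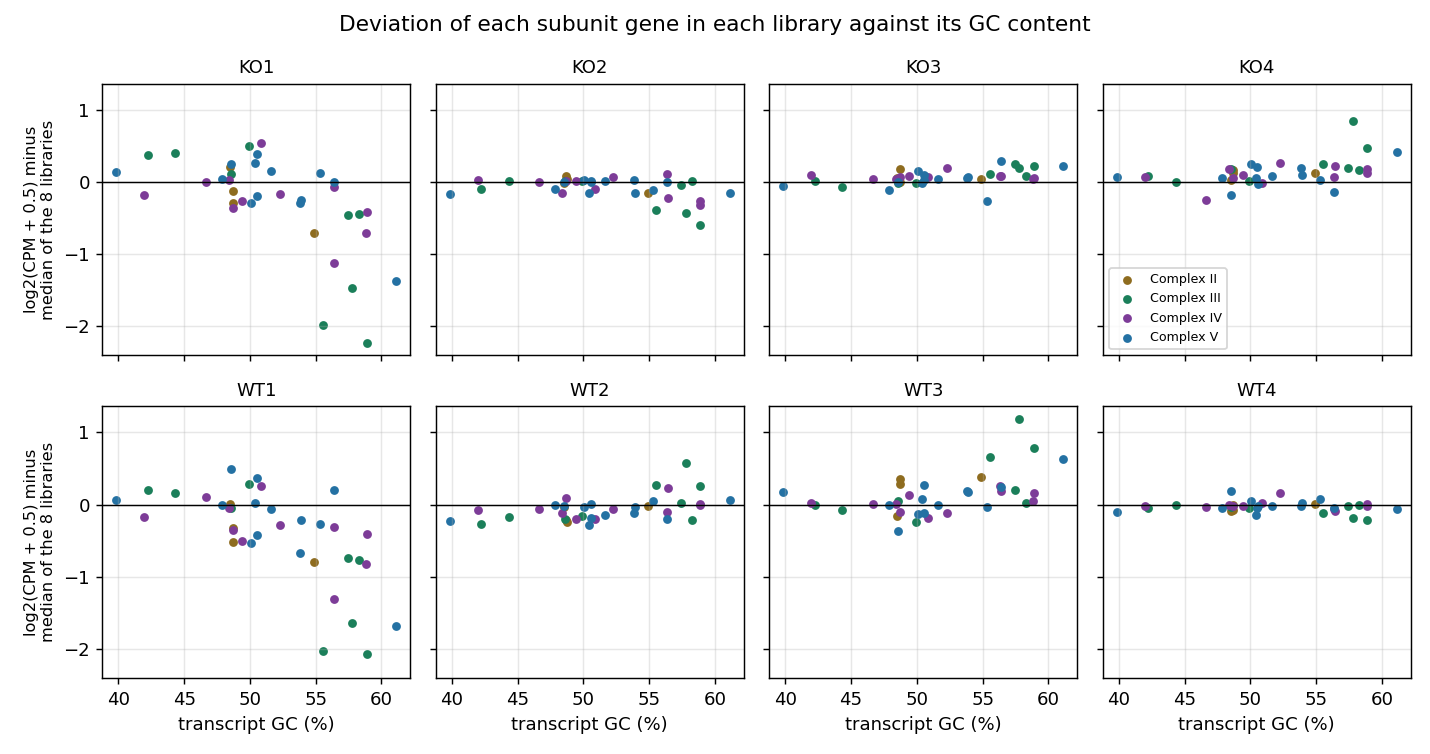
Deviation of each subunit gene from its median over the 8 libraries (vertical axis, log2(CPM + 0.5)) against the GC content of its transcript in percent (horizontal axis), with 1 panel per library and colours for the complexes. In KO1 and WT1 the subunits from 54.9% GC upwards lie mostly far below 0, with a median of −0.71 and −0.80, whereas in KO3, KO4 and WT3 their median lies above 0.

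Levels of different genes were compared per length as TPM (counts per kilobase of transcript, scaled to 1000000 per library over genes with a transcript). The highest means over the 8 libraries were 1059 ± 129.7 TPM for Cox6b1, 1031 ± 52.4 for Atp5b, 794 ± 270.3 for Cox4i1 and 594 ± 82.8 for Atp5a1 (SD, n = 8). Cox6b1 and Atp5b did not differ beyond their spread. Within complex III the order ran from Uqcrh, 481 ± 86.0 TPM, down to Uqcr11, 86.9 ± 52.1 TPM, with Uqcrb and Uqcrq next to Uqcr11 and within its spread. In complex II Sdha led with 209 ± 15.1 TPM, Sdhd and Sdhb followed with 148 ± 27.4 and 144 ± 37.1 TPM and did not differ beyond their spread, and Sdhc was last with 62.0 ± 8.27 TPM. The genes of 1 complex were therefore read at levels that differed many-fold. Subunits are not all present in equal numbers either, since each ATP synthase holds several copies of Atp5a1, Atp5b and the c subunit and a single copy of each central stalk subunit.

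The lowest levels belonged to genes whose sequence occurs again elsewhere in the genome. The authors counted uniquely aligned reads only, so a read that lies equally well in a processed copy is lost to its gene. The windows compared here have the read length that the methods give for the cultures, whereas the labels give longer, paired reads, of which fewer would be lost. The share of all 50-base windows of a transcript that were found without a mismatch at another place of NCBIM37 was 100% for Atp5g2, 89.4% for Atp5l, 86.8% for Atp5g1, 71.5% for Cox7c, 67.9% for Atp5h, 62.7% for Cox5b, 61.5% for Uqcrb and 54.3% for Cox7a2l. These 8 subunits had mean levels of 6.23 to 145 TPM with a median of 43.6 TPM, against 62.0 to 1059 TPM with a median of 228 TPM for the other 29. Cox7c and Atp5g2 were last in their complexes at 19.0 ± 1.65 and 6.23 ± 0.850 TPM. Over the 37 subunits the Spearman correlation between the share of such windows and TPM was −0.46, given as a description. Levels of these 8 genes are uncertain for this reason, and so is the mix of the c subunit genes, since Atp5g3 had 0% of such windows.

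**Figure D4:**
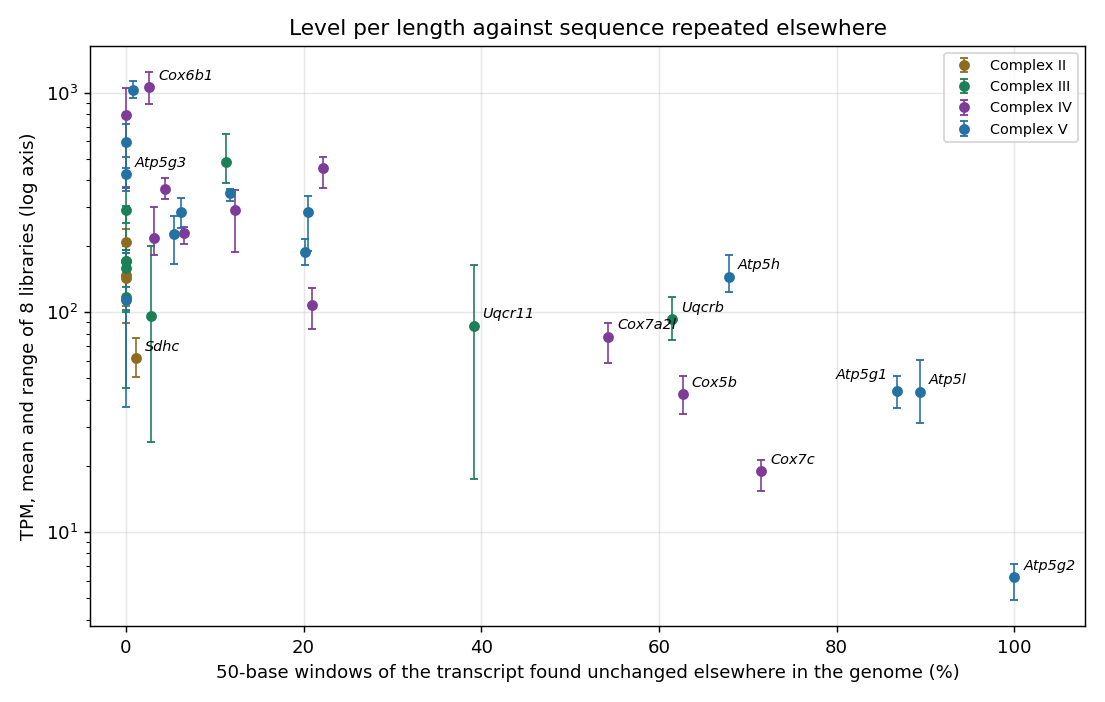
Level per length (TPM, log axis, point for the mean and bar for the range of 8 libraries) of each subunit gene against the percent of its 50-base windows found unchanged elsewhere in the genome. The 8 genes above 50% lie between 6.23 and 145 TPM, whereas Cox6b1 and Atp5b, with 2.63% and 0.857% of such windows, lie at 1059 and 1031 TPM.

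Exons of other genes were a second source of uncertainty, because no source says whether strand was used when reads were counted. Exons of Donson and of 2 antisense genes overlapped 44.0% of Atp5o, and those of the antisense gene Gm17596 overlapped 38.7% of Cox5a. The overlap was 12.7% for Atp5j, with the antisense gene Gabpa, and at most 7.3% for Uqcrc2, Cox6c, Uqcrb and Atp5d. The other 30 subunits had no such overlap in the annotation used.

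Promoters were read from RefSeq windows of 250 bases before to 50 bases after the transcript start on GRCm38.p6, which matched 29 of the 37 subunits. Both strands were searched for the letters of 3 motifs of factors known for nuclear genes of mitochondria. GCGCATGC (NRF1) was found in 7 subunits, Sdhb, Uqcrc1, Uqcr11, Cox6a1, Atp5g2, Atp5k and Atp5l, and in 3.05% of all genes. CCGGAAGT (ETS factors) was found in 4, Uqcrh, Uqcr11, Cox8a and Atp5h, and in 4.31% of all genes, and AAGATGGCG (YY1) in 2, Atp5j and Atp5j2, and in 1.64% of all genes. The ETS letters stood before both Uqcr11, low in KO1 and WT1, and Uqcrh, high in them. A match is a description of these letters only.

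The 2 subunits of the mitochondrial genome that were tested, mt-Cytb and mt-Co1, departed in KO1 and WT1 in the opposite sense to the low nuclear ones. Cytochrome b of complex III, mt-Cytb, had 16484, 9652, 9929 and 9794 CPM in KO and 14786, 11185, 6485 and 9408 CPM in WT. The catalytic core of complex IV, mt-Co1, had 12874, 7795, 7924 and 7571 CPM in KO and 11872, 8926, 5687 and 7871 CPM in WT. KO1 and WT1 were the highest libraries for both genes and WT3 the lowest, and log2 fold changes were 0.08 (SE 0.14, adjusted p = 0.877) and 0.01 (SE 0.12, adjusted p = 0.981, edgeR). No counts were recorded for mt-Co2 in any library. The nuclear subunits together amounted to 3606 ± 239.7 CPM in KO, against 3407 ± 327 CPM in WT (SD, n = 4 each), which is less than mt-Cytb alone.

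**Figure D5:**
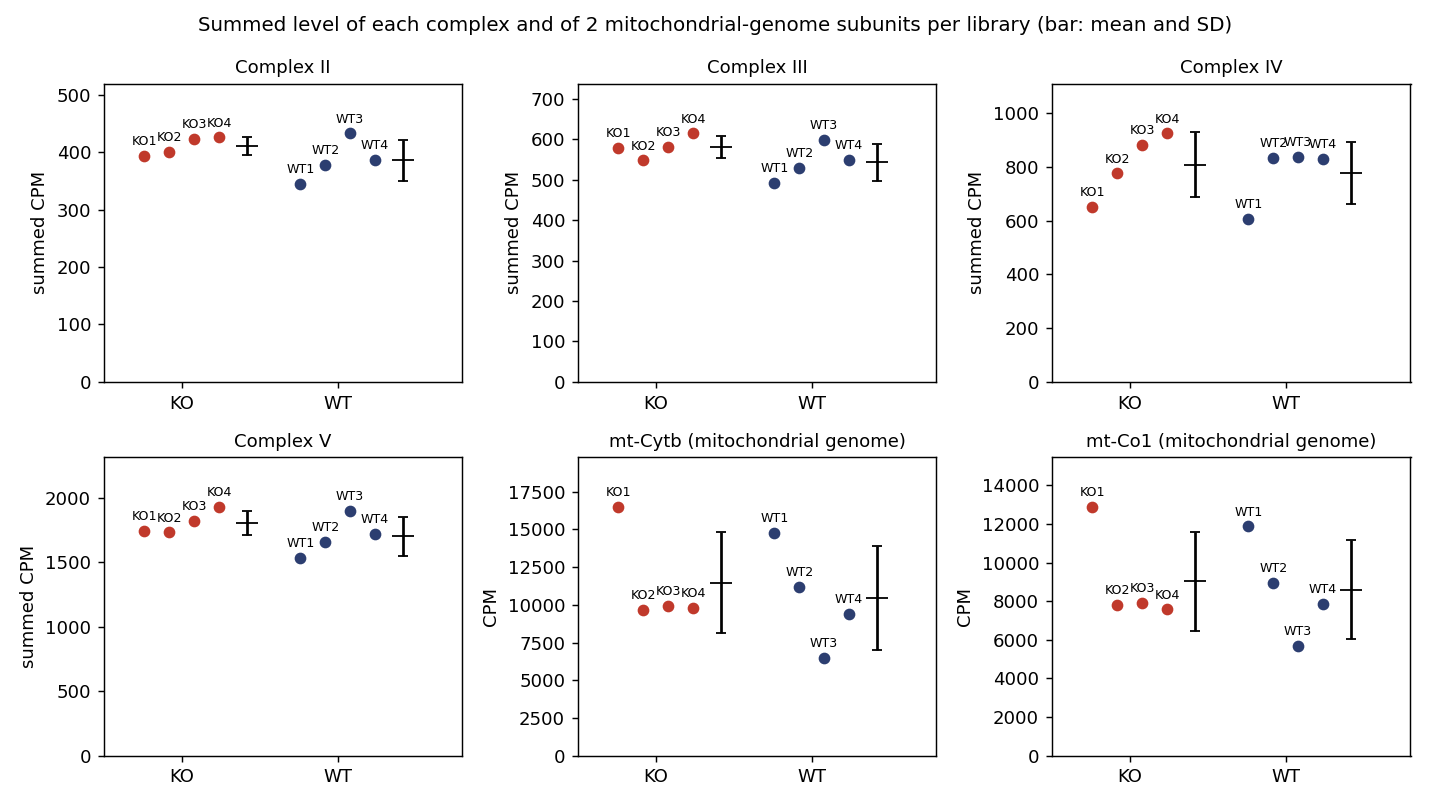
Summed CPM of the nuclear subunits of each complex (first 4 panels) and CPM of mt-Cytb and mt-Co1 (last 2 panels) in each library, KO in red and WT in blue, with the mean and SD of each genotype as a bar beside the points (n = 4). KO and WT overlap in every panel, and KO1 and WT1 are low for complex IV and high for mt-Cytb and mt-Co1.

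Other genes of the pathway were taken from lists drawn up by function. Of 36 complex I subunits 0 passed the adjusted threshold, 27 had a log2 fold change above 0, where 53.8% of all tested genes did, and the median was 0.04. The study's threshold, which 2.22% of all tested genes passed as higher in KO, was passed in that direction by Ndufa3 (0.31, SE 0.09, unadjusted p = 0.0062) and Ndufv3 (0.26, SE 0.06, unadjusted p = 0.0014), 2 accessory subunits with adjusted p of 0.333 and 0.248 (edgeR). Ndufa3 had a mean of 50.8 ± 5.29 in KO and of 40.2 ± 7.25 CPM in WT (n = 4 each, SD). Ndufa11 and Ndufab1, the latter the mitochondrial acyl carrier protein, reached an unadjusted p under 0.05 with log2 fold changes of 0.24 (SE 0.08) and 0.21 (SE 0.08) and adjusted p of 0.366 and 0.436 (edgeR). Ndufa11 repeated the pattern of Uqcr11, with 7.44 and 5.38 CPM in KO1 and WT1 against 26.4 to 38.0 CPM in the others.

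Assembly factors insert cofactors and join subunits, and are not part of the finished complexes. Of the factors listed here all 4 of complex II, 6 of complex III and 4 of complex V and 22 of 23 of complex IV were tested, and 0 passed the adjusted or the study's threshold. The complex III list does not hold Brawnin (Uqcc6, counted as 1190007I07Rik, ENSMUSG00000063320), an assembly factor that the study followed up. Brawnin was lower in KO, with 1.01, 1.01, 0.825 and 1.41 CPM in KO and 3.42, 3.17, 2.77 and 2.95 CPM in WT. The fitted difference for Brawnin came to −1.57 on the log2 scale (SE 0.20, adjusted p = 0.0354, edgeR), from −1.82 to −1.14 over 24 alternatives, of which 8 kept the adjusted p under 0.05. Without KO1 and WT1 and without a surrogate variable it was −1.49 (adjusted p = 0.536, edgeR). The medians were 0.10, 0.03 and 0.07 for complexes II, III and V and 0.06 for complex IV. An unadjusted p under 0.05 with a higher level in KO, which 4.87% of all tested genes had, was reached by 3 of the 36 listed factors that were tested. They were Cox10, which makes haem for complex IV (0.21, SE 0.09), Cox19, a copper-delivery factor (0.15, SE 0.07), and Atpaf2, a chaperone of the complex V head (0.19, SE 0.07), with adjusted p of 0.468, 0.469 and 0.415 (edgeR).

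A further list held 9 genes of complexes IV and V and cytochrome c that are not among the 37. None passed the adjusted threshold, 2 had a log2 fold change above 0, beside 53.8% of all tested genes, and the median was −0.02. Usmg5, a small membrane protein of complex V, had a log2 fold change of −0.45 (SE 0.17, unadjusted p = 0.0230, adjusted p = 0.404, edgeR) and passed the study's threshold, as 3.53% of all tested genes did as lower in KO, with 1.09, 1.04, 1.17 and 1.06 CPM in KO and 1.25, 1.44, 1.70 and 1.47 CPM in WT. The genotypes did not overlap for Usmg5, lower in KO, a pattern met by 0.860% of all tested genes, and no library held more than 97 counts of it. Atpif1, which inhibits ATP hydrolysis by complex V, had a log2 fold change of −0.01, and Ndufa4, now counted to complex IV, of −0.06.

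Subunit isoforms of heart, muscle, lung and testis had low counts in these neurons. Of 8 such isoforms 7 were counted and 3 had enough counts to be tested, and the 7 together summed to between 1.06 and 5.81 CPM. Cox7a1, the heart and muscle form of the Cox7a subunit, had 0.402, 0.607, 0.518 and 0.445 CPM in KO and 0.128, 0.402, 0.315 and 0.369 CPM in WT. Its log2 fold change was 0.67 (SE 0.30, unadjusted p = 0.0484, adjusted p = 0.468, edgeR). Cox7a1 thus passed the study's threshold as higher in KO, as 2.22% of all tested genes did, with at most 27 counts in a library. Cox6b2, the testis form of the Cox6b subunit, had the highest mean per length of the 7, 5.85 TPM, near the 6.23 TPM of Atp5g2. Cox6a2, singled out after its values were seen, had 3.69 CPM in WT3 and 0.096 to 0.790 CPM in the other 7 libraries, and reached 16.3 TPM in WT3.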

How the data were processed

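RNA-seq values were raw read counts per Ensembl gene deposited by the authors, who did not pool replicates. Per the labels and methods, reads were trimmed with cutadapt 1.10, ribosomal reads were discarded with Bowtie2 2.2.8, and the rest were aligned to mm10 with STAR 2.5.3a and counted if unique with HTSeq 0.6.1p1 in union mode. Labels and methods differ on read length and layout, and use of strand is not stated. The subunits and gene lists were chosen with earlier results of these data known.

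Counts were tested with edgeR 4.0.16 in R 4.3.3 (filterByExpr, TMM, robust quasi-likelihood F test, Benjamini-Hochberg threshold 0.05) with genotype and 1 surrogate variable from svaseq (sva 3.50.0). The procedure was tested on simulated data, which held genotype differences but no GC trend and no libraries set apart. Genotype came from the labels. Samples of a genotype are separate animals by the study's account. CPM used library totals. TPM used the GENCODE vM1 transcript with the longest coding sequence, the shortest where several tied. Windows were compared with NCBIM37, whose coordinates were not mixed with GRCm38 gene positions from a RefSeq table.

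Named with full statistics were every subunit with an unadjusted p under 0.05, the highest and lowest log2 fold change and the highest and lowest TPM of each complex, complex II, the c subunit genes, Nuak1 and up to 5 genes of each list other than the cell markers by smallest unadjusted p under 0.05. Atp5d, Cox4i1, Uqcrq and Brawnin were added after their values were seen. Alternatives are DESeq2 1.42.0, other scalings, filters and terms, each lane alone and each library left out. Cox8c, Pet117, mt-Co3, mt-Atp6 and mt-Atp8 were not analysed here.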

Additional observations from a re-analysis of the deposited data

Results flagged for a closer look

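The values of each genotype were searched for a library set apart from the other 3 (Dixon's criterion for 4 values at 95%). Over 54 groups of values, those of the subunits named with full statistics, the sums per complex and over all 37 subunits and the c subunit shares, 2 were set apart, where chance gives about 1 in 20, or 2.7. Uqcrh, the hinge protein of complex III, had 122.6 CPM in KO1 and 86.0 to 87.7 CPM in the other KO libraries. The summed level of complex IV was 605 CPM in WT1 and 831 to 838 CPM in the other WT libraries. Both belong to the pair of libraries described above.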

How the results depend on the processing

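No subunit gene passed either threshold in any of 24 alternatives, and 15 of 37 kept the sign of their log2 fold change in all of them. The median over the subunits lay between 0.012 and 0.15. Counts over all genes moved more. Genes past the adjusted threshold, 8 in the fit reported, numbered 3 to 91 with 1 library left out (91 without WT3), 168 in DESeq2, 99 on lane B, 0 on lane A, 45 without a filter, 4 with 2 surrogate variables, with none or with lane as a term, 3 without KO1 and WT1, 2 with a GC offset and 1 with the strain label. Genes past the study's threshold numbered 606 to 1403 with 1 library left out (606 without WT1), 430 with the GC offset alone, 96 on lane A, 1612 on lane B, 452 with lane and 310 with strain as a term, 1488 without a filter, 396 without a surrogate variable and 555 without KO1 and WT1 or a surrogate variable. The complex V median was 0.15 with the strain label, which compares KO4 with WT2 and WT4 alone.

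Signs turned for some subunits, furthest for Uqcrq. The strain label gave 0.59 for Uqcrq, 0.42 for Uqcr11, 0.14 for Uqcr10, 0.12 for Cox4i1 and 0.11 for Sdhb. Lane A gave −0.054 for Sdhd, 0.27 for Atp5g2, 0.072 for Cox4i1 and −0.10 for Atp5d, and lane B 0.0099 for Cox7c, 0.23 for Atp5g1 and −0.023 for Atp5d. Atp5d was also −0.062 with lane as a term, −0.059 without a surrogate variable, −0.0010 with the replicate block and −0.092 without KO1 and WT1 or a surrogate variable. Uqcrq was 0.032 with 2 surrogate variables. Without KO1 and WT1, Uqcrq was 0.074 and Uqcr11 0.057 with a surrogate variable, and Atp5g1 was 0.058 with one and 0.026 without. With 1 library left out Uqcr11 ranged from −0.29 to 0.0064, Cox4i1 from −0.074 to 0.073, Atp5g1 from −0.15 to 0.067 and Atp5g2 from −0.25 to 0.055. The share difference turned to 0.995 percentage points for Atp5g1 and −0.534 for Atp5g3 on lane B, and to 0.189 for Atp5g2 on lane A. The cause was not tested. Deviations of same-numbered KO and WT libraries had correlations of 0.80, 0.012, 0.25 and 0.0023 for numbers 1 to 4. Whether the numbers mark a pairing was not tested. The replicate block in place of the surrogate variable called 3 genes and 0 subunits, with a subunit median of 0.035. Of the KO libraries only KO1 correlated best with the WT library of its own number.

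With 4 libraries per genotype, standard errors of the subunits ran from 0.05 to 0.21 on the log2 scale.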
